A study of Mus musculus with 32 samples.

Results

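Brain arteries of 8 Notch3-/- mice, in which the Notch3 gene is inactivated, were compared with those of 8 Notch3+/+ mice, all aged 3 months, by RNA sequencing. The paper describes the controls as littermates of the same age, and the labels do not give which mice shared a litter. Every gene that passed a filter on low counts was tested, and the genes of chromosome 17, which carries Notch3, were counted apart from the rest. These 16 libraries are part of a series of 32. The other 16 come from TgNotch3R169C mice, which carry mutant rat Notch3 beside the mouse gene, and from WT mice, both aged 12 months. Each mouse gave 1 library. The Notch3-/- line was backcrossed onto C57BL/6, and the gene is inactivated throughout the animal rather than in a chosen cell type. The frozen arteries, cleaned under a microscope, gave poly(A)-selected RNA for stranded libraries. The comparison was designed to find genes that depend on Notch3. The study also tested it over the whole genome and took the downregulated genes as a signature of NOTCH3 activity. The comparison is described here beyond 11 genes that the study used as Notch3 targets (Xirp1, Pln, Angpt4, Pgam2, Susd5, Grip2, Sorbs2, Nrip2, Tbx2, Cdh6 and S1pr3), which are given as a count and a range. The gene lists used below hold none of these 11 genes, so the counts of called list members do not cover them.

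Notch3 is a receptor of mural cells, the smooth muscle cells and pericytes that wrap blood vessels. When a ligand on a neighboring cell binds it, its intracellular part is cut free, enters the nucleus and joins the DNA-binding protein RBPJ to switch on genes. In arteries the receptor is known for the maturation and upkeep of smooth muscle cells, whose contractile apparatus sets vessel tone, and mutations that add or remove a cysteine in its extracellular part cause CADASIL, an inherited small vessel disease of the brain.

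The Notch3+/+ libraries held 29176125 to 54481934 counts (median 33013620) and the Notch3-/- libraries 26255835 to 37371393 (median 34845896). Levels are given as CPM, the counts of a gene scaled to a common library size by TMM normalization. They are not divided by gene length and are compared only within a gene. All 8 smooth muscle, 12 endothelial and 11 pericyte markers were detected and tested, whereas 5 of 10 markers of cardiac and skeletal muscle were too low to test and the summed level of that list was 5.33 to 14.2 CPM per library. In both groups Xist was high in replicates 5 to 8 and Y-linked genes in replicates 1 to 4, so that the sexes were balanced. A pair of libraries stood apart by RNA of a neighboring tissue. The choroid plexus list summed to 24930 CPM in Notch3-/- replicate 8 against at most 563 CPM elsewhere, and the pituitary list to 8856 CPM in Notch3+/+ replicate 5 against at most 147 CPM elsewhere. No member of either list was called, and counts are also given without both libraries.

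Of 17714 genes tested, 115 were called at an adjusted p below 0.05, which is 0.649% of them (edgeR's quasi-likelihood test with Benjamini-Hochberg adjustment). Off chromosome 17, 72 of 16853 genes were downregulated (0.427%) and 18 were upregulated (0.107%). The 16853 include 40 genes that were matched to no chromosome, none of which was called. All 11 target genes were among the downregulated genes, with log2 fold changes of -2.04 to -0.68 and a median of -1.14, which leaves 61 others. The 79 genes off chromosome 17 that are no target genes included 71 protein-coding genes, and 32 of them had groups that did not overlap, 26 lower and 6 higher, where 0.333% of all genes tested had. Of the 61 downregulated genes, 18 fell by at least 1 on the log2 scale, and 24 had a mean level under 5 CPM in Notch3+/+ arteries. Unadjusted p-values were below 0.05 for 1363 genes, and the median log2 fold change of all genes was -0.0011. Without the 2 libraries that stood apart, 67 genes were downregulated and 7 upregulated off chromosome 17, and 42 of the 61 downregulated genes outside the target list and 6 of the 18 upregulated genes were still called. Leaving out 1 library at a time gave 47 (without Notch3-/- replicate 7) to 83 downregulated genes off chromosome 17. The upregulated genes there numbered 6 to 10 without any 1 of Notch3+/+ replicates 1, 4, 5, 6 and 7 and Notch3-/- replicates 6, 7 and 8, and 31 and 29 without Notch3-/- replicates 1 and 2.

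**Figure D1:**
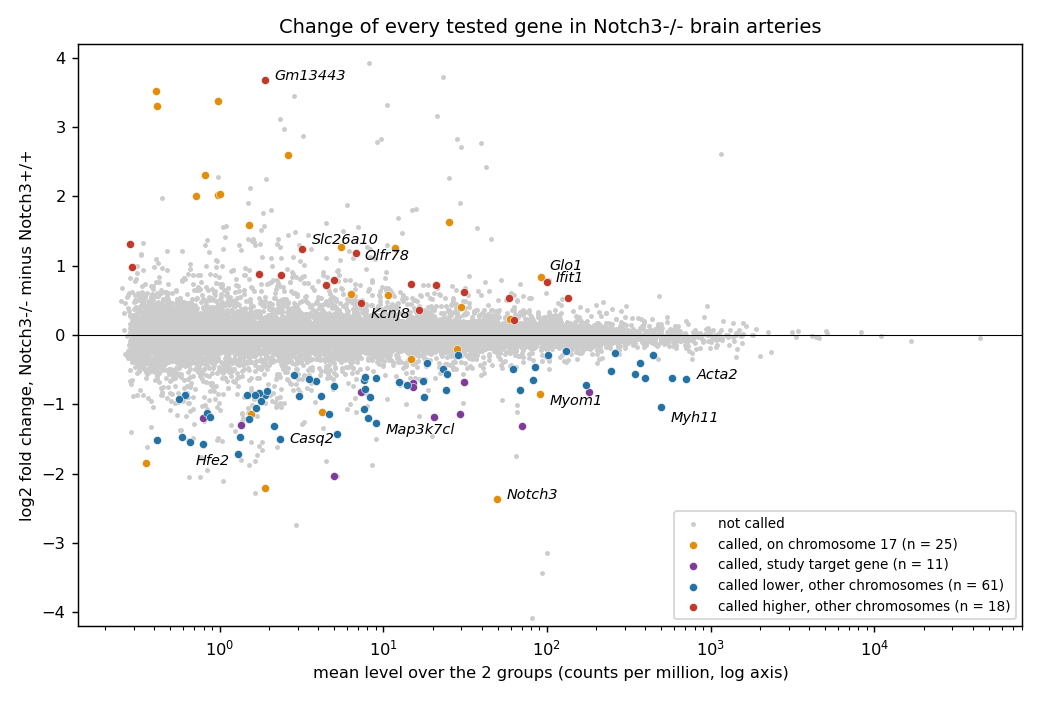
The log2 fold change of each tested gene (Notch3-/- minus Notch3+/+) is plotted against its mean level (CPM, log axis); colors mark the 115 called genes by chromosome 17, target gene and direction. The 61 downregulated genes off chromosome 17 (blue) outnumber the 18 upregulated ones (red) and reach into the most abundant transcripts through Myh11 and Acta2; 10 uncalled genes lie beyond the axis.

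Notch3 (ENSMUSG00000038146) itself was measured at 65.3 to 97.6 CPM in Notch3+/+ libraries, with a median of 82.6, and at 13.5 to 18.6 CPM in Notch3-/- libraries, with a median of 16.4. Every Notch3-/- library was below every Notch3+/+ library, a log2 fold change of -2.37 (SE 0.0924; edgeR, adjusted p = 1.39e-10). All 16 libraries matched their labels. Counts remained at the gene in Notch3-/- arteries, and their place along it was not analysed here. None of the 10 other receptors, ligands and glycosyltransferases of the pathway was called, and their median was 0.08. Notch1, Notch2 and Jag1 were at 0.07, -0.04 and 0.09. None of 10 general effectors was called either (median -0.01). Since 0.649% of all genes tested were called, lists this short mostly hold no call. Hes1 and Hey1, repressors that Notch switches on in many cells, were at 0.20 and 0.14, and Heyl and Hey2 at -0.12 and -0.30, and none of the 4 passed the test.

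Genes of the contractile apparatus of smooth muscle were lower in Notch3-/- arteries. Of the 8 smooth muscle markers 7 were called, all downregulated, with a median of -0.63 over the list where the median of all genes was -0.0011. Over all genes tested 0.649% were called, the share to set beside each count of called list members here and below. Of the 15 contractile genes, a list that shares all 8 of these markers, 8 were downregulated and 14 were below 0. Myh11, the myosin heavy chain of smooth muscle, had 478 to 943 CPM (median 659) in Notch3+/+ and 275 to 416 CPM (median 314) in Notch3-/- libraries. The groups did not overlap, and the log2 fold change was -1.04 (SE 0.130; edgeR, adjusted p = 0.000395).

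The actin filament followed with smaller changes. Acta2, smooth muscle actin, lay at 638 to 1203 CPM (median 844) in Notch3+/+ and at 458 to 738 CPM (median 522) in Notch3-/- libraries. Its groups overlapped because the highest Notch3-/- library lay above the 2 lowest Notch3+/+ libraries, and it had a log2 fold change of -0.63 (SE 0.122; edgeR, adjusted p = 0.0190). Tpm2, a tropomyosin that lies along actin, went from 155 to 303 CPM down to 112 to 153 CPM with no overlap (log2 fold change -0.73). Tagln, Cnn1 and Lmod1, which bind or nucleate actin, changed by -0.63, -0.79 and -0.65. Myl9, the regulatory light chain, and Mylk, the kinase that phosphorylates it to start contraction, changed by -0.61 and -0.56.

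Members of the same lists that were not called were Smtn (-0.34), Tpm1 (-0.34), Flna (-0.32), Cald1 (-0.18), Actg2 (-0.45) and Myl6 (-0.22). Des, the intermediate filament desmin, was the single contractile gene above 0, at 0.28. Among 10 genes that control contraction, Ppp1cb, the catalytic subunit of myosin phosphatase, was downregulated by a small amount (-0.26), and 9 of the 10 were below 0. In bulk arteries, fewer smooth muscle cells and less RNA per smooth muscle cell cannot be told apart. The summed level of the 8 markers was 2717 to 4781 CPM in Notch3+/+ and 1820 to 2829 CPM in Notch3-/- libraries, so that it differed between groups beside every gene described below. Without Notch3-/- replicate 7 the markers called numbered 2 and the contractile genes 3, and without both libraries that stood apart they numbered 3 and 4, with medians of -0.60 and -0.54.

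**Figure D2:**
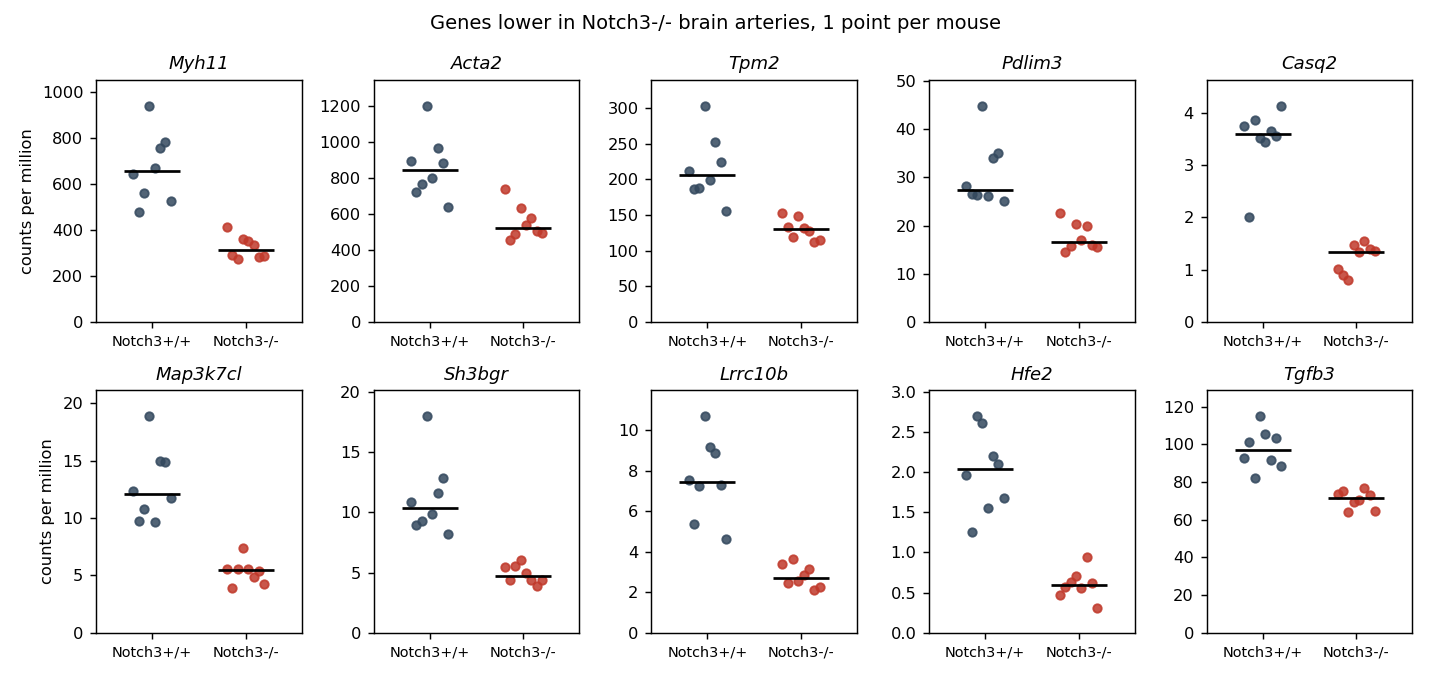
CPM of 10 downregulated genes are shown for each of the 8 Notch3+/+ (dark) and 8 Notch3-/- (red) mice, with a line at the group median and each axis starting at 0. The groups are apart for 9 of the 10 genes and overlap for Acta2, where the highest Notch3-/- library reached 738 CPM and the lowest Notch3+/+ library 638 CPM.

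Proteins that anchor actin at dense bodies, the smooth muscle counterpart of the Z-disc, were affected in part. Of 26 adhesion and Z-disc genes 3 were downregulated, where 0.427% of genes off chromosome 17 were. In this list 22 genes were below 0, with a median of -0.12. The target genes Xirp1 and Sorbs2, called lower (-2.04 and -0.83), are not in that list. Pdlim3, a PDZ and LIM domain protein of the Z-disc, went from 25 to 44.8 CPM (median 27.4) down to 14.5 to 22.5 CPM (median 16.6), with no overlap (log2 fold change -0.80, SE 0.126; edgeR, adjusted p = 0.0038). Ldb3, which belongs to the same family, fell by 0.67 on the log2 scale, also without overlap, and the LIM protein Csrp1 fell by 0.41. The integrin-linked core of the list was near 0, with Tln1 (talin) at -0.06, Vcl (vinculin) at -0.11, Itgb1 at -0.12 and Zyx at 0.04.

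Several proteins best known from the heart and skeletal muscle were downregulated, whereas no marker of those tissues was called. Casq2, the calcium-binding protein of the sarcoplasmic reticulum, had 2.01 to 4.13 CPM (median 3.59) in Notch3+/+ and 0.797 to 1.54 CPM (median 1.35) in Notch3-/- libraries. No library crossed between groups (log2 fold change -1.50, SE 0.164; edgeR, adjusted p = 0.000165). Jph2, which ties the reticulum to the cell membrane, fell by 0.56 on the log2 scale. Where 0.649% of all genes tested were called, Casq2 and Jph2 were the 2 called genes of 14 in the calcium store list (median -0.09). The target gene Pln, called lower (-1.31), is not in that list. Ryr2, Itpr1 and Atp2a2, the release channels and the pump of the store, were at -0.33, -0.17 and -0.09 and were not called.

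Cav3, the caveolin of muscle, was low in all libraries and went from 0.590 to 1.63 CPM down to 0.194 to 0.670 CPM (log2 fold change -1.55). Hfe2, hemojuvelin, a coreceptor for bone morphogenetic proteins, lay at 1.26 to 2.69 CPM (median 2.03) in Notch3+/+ and 0.310 to 0.944 CPM (median 0.598) in Notch3-/- libraries. With no overlap and a log2 fold change of -1.72 (SE 0.202; edgeR, adjusted p = 0.000242), it had the lowest fold change among the 61 genes. Lrrc39, a leucine-rich repeat protein of the muscle M-band, changed by -1.51 and was called in 6 of 16 leave-one-out fits. The markers of striated muscle that could be tested, Tnnt2, Tnni3, Acta1, Myh1 and Tnnt3, were at 0.02 to 0.70 and none was called.

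A further group of downregulated genes with muscle roles was picked after its values were seen. Srl (sarcalumenin, a calcium buffer of the reticulum) was at -1.06, Synpo2l at -0.86, Fbxl22 at -0.90, Sgca (alpha-sarcoglycan) at -0.84 and the muscle kinase-like gene Alpk3 at -0.62. Synpo2l, Sgca and Alpk3 were called in 3 or 4 of 16 such fits, and Fbxl22 and Srl in all 16.

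The clearest separation among less studied genes was that of Map3k7cl, Sh3bgr and Lrrc10b. Map3k7cl, named for its likeness to a part of the kinase TAK1, ran from 9.65 to 18.9 CPM (median 12.1) in Notch3+/+ and from 3.93 to 7.37 CPM (median 5.46) in Notch3-/- libraries. Its log2 fold change was -1.27 (SE 0.150; edgeR, adjusted p = 0.000247). Sh3bgr and Lrrc10b changed by -1.19 and -1.43, and neither had groups that overlapped. The 12 genes with the lowest fold changes, predicted gene models left aside, also held Ect2l (-1.57), Ces5a, a carboxylesterase (-1.47), and Tigd4 (-1.19). These were at 0.577 to 1.69 CPM in Notch3+/+ libraries, where counts are few.

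A few receptors and channels were downregulated. Agtr2, the angiotensin II type 2 receptor, fell by 1.22 on the log2 scale, from 1.39 to 2.63 CPM to 0.347 to 1.47 CPM, with a slight overlap. Hcrtr1, an orexin receptor, fell by 1.47 with no overlap. P2rx1, the ATP-gated cation channel through which nerves excite smooth muscle, fell by 0.73. It was the single called gene of 16 calcium and cation channels, where 0.649% of all genes tested were called. None of 27 listed receptors for vasoactive substances was called, which does not depart from that share. Their median was -0.04. That list holds neither Agtr2 nor the target gene S1pr3, which was also called lower (-0.68). Agtr1a and Ptger3 were at -0.55 and -0.40, and Ednra and Tbxa2r at 0.04 and -0.04.

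Of 16 potassium channel genes 13 were below 0 and the median was -0.30, yet none of the 13 was called, Kcnmb1 (-0.59), Kcnk3 (-0.44) and Kcnab1 (-0.41) included. Kcnj8, the pore of the ATP-sensitive potassium channel, was upregulated instead, and Abcc9, its partner subunit, was at 0.37 with an adjusted p of 0.083 by edgeR.

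The downregulated genes included secreted factors. Tgfb3, a ligand of the TGF-beta family, lay at 82.0 to 115 CPM (median 97.0) in Notch3+/+ and 63.9 to 76.9 CPM (median 71.6) in Notch3-/- libraries. The groups did not overlap (log2 fold change -0.46, SE 0.0629; edgeR, adjusted p = 0.000934). Tgfb3 was the single called gene of 18 listed growth signals of mural cells, where 0.649% of all genes tested were called. That list holds Angpt1 and Angpt2 but not the target gene Angpt4, which was called lower (-1.30). Tgfb1, Tgfb2 and Pdgfb were at 0.05, 0.13 and 0.14. No gene of the elastic fibre list (14 tested, median -0.09) or the basement membrane list (15 tested, median -0.08) was called, with Eln, Fbn1 and Col4a1 at -0.25, 0.01 and -0.12. Picked after their values were seen, the extracellular proteins Pappa2 (a protease of insulin-like growth factor binding proteins, -1.15), Adamts8 (-0.78), Crispld2 (-0.51) and Optc (-1.05) were downregulated, as were Mthfd2 (-0.60) and Aldh1l2 (-0.65), enzymes of folate metabolism in mitochondria. Aldh1l2 was called in 3 of 16 leave-one-out fits and Mthfd2 in all 16.

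**Figure D3:**
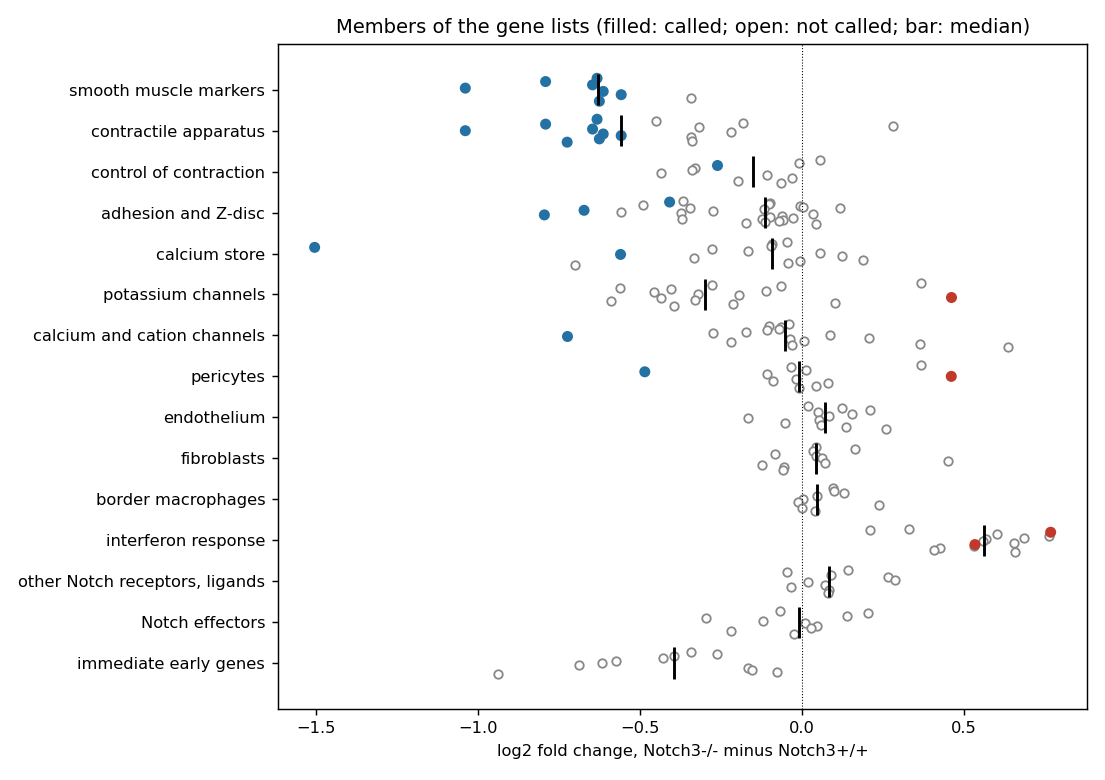
Each point is a tested member of a gene list, placed by its log2 fold change (Notch3-/- minus Notch3+/+); filled points were called, open points were not, and the bar is the list's median. Smooth muscle markers and contractile genes sit to the left (medians -0.63 and -0.56), the interferon list to the right (median 0.56), and pericyte, endothelial, fibroblast and macrophage lists around 0.

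By their list medians, markers of the other cells of the arterial wall did not shift in this way. With 0.649% of all genes tested called, no call in a list this short does not set it apart from other genes. Of 11 pericyte markers 1 was upregulated (Kcnj8) and 1 downregulated (Cspg4, the NG2 proteoglycan that smooth muscle cells also carry, at -0.49), and the median was -0.01, with Pdgfrb at -0.09, Vtn at 0.04 and Rgs5 at 0.08. No marker was called among 12 of endothelium (median 0.07), 10 of arterial endothelium (0.04), 9 of the blood-brain barrier (-0.01), 11 of fibroblasts (0.04), 9 of border macrophages (0.05), 6 of microglia (-0.03), 9 of astrocytes (0.03) or 12 of neurons (-0.03). All 8 oligodendrocyte markers were above 0 with a median of 0.33, again without a call, and their sum overlapped between groups (706 to 1831 CPM and 1091 to 2198 CPM). Lymphocyte, Schwann cell and red cell markers gave no call either, with medians of -0.01, 0.36 and 0.42.

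None of 18 tested transcription factors on the smooth muscle list was called (median 0.01). Srf, Mrtfa and Mrtfb were at -0.11, 0.09 and 0.11, and Myocd, the cofactor that drives contractile genes, at -0.48 with a wide error (SE 0.321). That list does not hold the target gene Tbx2, also a transcription factor, which was called lower (-0.74). No gene was called among those listed for cGMP signaling (13 tested, median -0.07), RGS proteins (7, -0.10), BMP and WNT signaling (24, -0.02), axon guidance (24, -0.02), glycolysis (18, 0.00), lipid handling (10, 0.02), sterol synthesis (16, -0.10), the clock (14, 0.03), proliferation (7, 0.11) or mitochondrial RNA (6, -0.02). Lists this short mostly hold no call when, as here, 0.649% of all genes tested were called. The target gene Pgam2, called lower (-1.19), is not in the glycolysis list. The 11 immediate early genes were all below 0 with a median of -0.39, yet none was called and their sums overlapped (314 to 755 CPM and 269 to 444 CPM).

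The cell in which a gene is made cannot be read from bulk arteries, but the company it keeps can be described in libraries that did not choose it. In the 16 libraries aged 12 months, after the mean of each group was removed, each gene was correlated with the mean level of 9 cell marker lists, leaving the gene out of its own list. Of the 61 downregulated genes 25 (41.0%) followed the smooth muscle list more closely than any other, where 4.88% of all genes tested did. Of these 25 genes, 6 are themselves markers on that list (Acta2, Cnn1, Tagln, Myh11, Myl9 and Lmod1). The median Pearson r of the 61 genes with that list was 0.564, and Spearman's rho 0.453, where all genes had 0.0242 and 0.0176. The same 61 genes also had a median r of 0.440 with pericytes, 0.420 with endothelial cells, 0.365 with fibroblasts and 0.304 with border macrophages, so that the smooth muscle list was the first of several. These values share libraries and depth and are given as a description, with no test. Hfe2, P2rx1 and Jph2 had an r of 0.702, 0.770 and 0.819 with the smooth muscle list. Casq2 and Sh3bgr, in contrast, had 0.0855 and 0.278 with it, and Srl -0.452. Of the 61 genes, 17 had a lower fold change than Myh11, the lowest of the 8 smooth muscle markers, and 5 had a smaller change than Smtn, the least changed marker.

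Among the 18 upregulated genes off chromosome 17, Slc26a10 and Olfr78 changed most among those with a named product and more than trace counts. Slc26a10, a member of the SLC26 anion transporter family, had 1.24 to 2.32 CPM (median 1.99) in Notch3+/+ and 3.22 to 5.79 CPM (median 4.62) in Notch3-/- libraries. Every Notch3-/- library was above every Notch3+/+ library, a log2 fold change of 1.24 (SE 0.161; edgeR, adjusted p = 0.000553). Olfr78, an olfactory receptor known outside the nose for sensing short-chain fatty acids and lactate, had 2.77 to 5.95 CPM (median 4.23) and 5.85 to 16.1 CPM (median 8.78). The lowest Notch3-/- library lay within the Notch3+/+ range, and the log2 fold change was 1.19 (SE 0.211; edgeR, adjusted p = 0.0101). Olfr560 (1.32) overlaps Olfr78 on the same strand in the annotation, so its few counts are uncertain.

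Signals and surface proteins made up a second group. Fgf7, a growth factor for epithelium made by mesenchymal cells, went from 2.43 to 3.95 CPM (median 3.41) up to 4.65 to 6.60 CPM (median 5.56), with no overlap (log2 fold change 0.72). Fst, follistatin, which binds activins, rose by 0.87 and Col14a1, a fibril-associated collagen, by 0.63. Cdh13, a cadherin anchored without a cytoplasmic part, rose by 0.53 without overlap, from 37.5 to 54.7 CPM up to 54.9 to 101 CPM. It was the single called gene of 10 listed cadherins, which do not include the target gene Cdh6, called lower (-0.69). Of all genes tested 0.649% were called. Kcnj8 ran from 5.10 to 7.04 CPM (median 6.25) up to 7.03 to 9.46 CPM (median 8.86), a log2 fold change of 0.46 (SE 0.0799; edgeR, adjusted p = 0.00848). Its groups met at the highest Notch3+/+ and the lowest Notch3-/- library. In the libraries aged 12 months its r with the pericyte list was 0.823. Gm13443, a predicted gene of chromosome 2 picked for its size, was at 0.0662 to 0.172 CPM in 7 Notch3+/+ libraries and 1.37 in the other, against 1.90 to 4.76 CPM in Notch3-/- libraries.

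**Figure D4:**
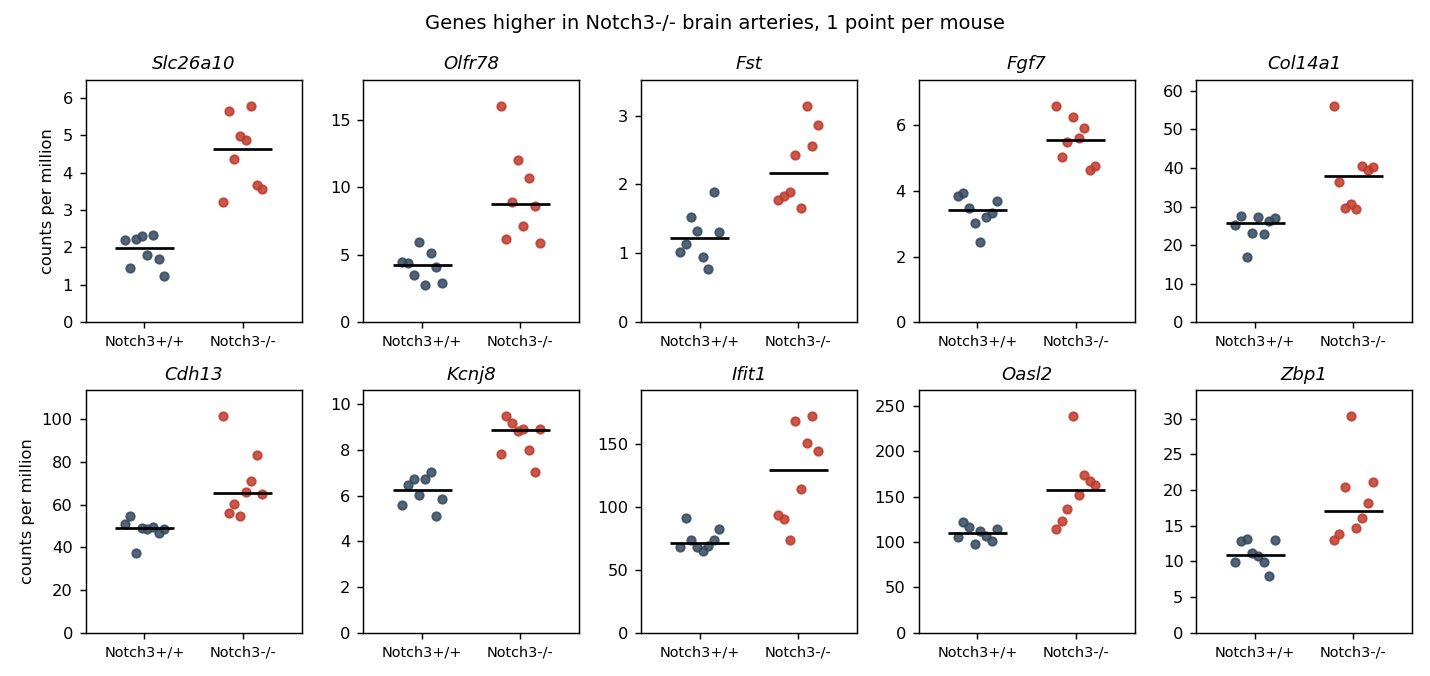
CPM of 10 upregulated genes are shown for each Notch3+/+ (dark) and Notch3-/- (red) mouse, with a line at the group median and each axis starting at 0. Slc26a10, Fgf7, Col14a1 and Cdh13 do not overlap between groups, while Ifit1, Oasl2 and Zbp1 spread widely in Notch3-/- mice, with 73.7 to 172 CPM for Ifit1.

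Genes of the interferon response, which cells switch on against viruses and foreign nucleic acid, formed the third group, and their calls depended on the settings. All 14 members of the list were above 0 with a median of 0.56. Of them 2 were called, Ifit1 and Oasl2, where 0.107% of genes off chromosome 17 were upregulated. Ifit1, which binds foreign RNA, had 65.1 to 91.2 CPM (median 71.3) in Notch3+/+ and 73.7 to 172 CPM (median 129) in Notch3-/- libraries. Oasl2, a relative of the oligoadenylate synthetases, had 97.9 to 122 CPM (median 110) and 115 to 239 CPM (median 157). The groups overlapped for both, with log2 fold changes of 0.77 (SE 0.158; edgeR, adjusted p = 0.0319) and 0.53 (SE 0.116; edgeR, adjusted p = 0.0453).

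The list summed to 633 to 769 CPM in Notch3+/+ libraries. It was 740 to 769 CPM in Notch3-/- replicates 1 to 3, inside that range, and 852 to 1409 CPM in replicates 4 to 8, above it. Zbp1 and Ifih1, sensors of nucleic acid, rose by 0.73 and 0.22, and Tgtp1, Gbp10 and Ifit3b, which have near-identical copies and therefore uncertain counts, by 0.79, 0.87 and 0.73. Irf7 and Isg15 were at 0.76 and 0.68 and were not called. DESeq2 called 8 of the 14 genes, limma voom none, and the fit without both libraries that stood apart none, with medians between 0.51 and 0.59 over these and the other settings that kept single libraries in. With Xist as a covariate 1 was called. The macrophage list did not move with these genes, at 1086 to 1521 CPM and 1075 to 1556 CPM. In the libraries aged 12 months, 9 of the 18 upregulated genes (50%) followed that list most closely, against 14.1% of all genes tested. They were Fgf7 and 8 genes known for interferon or immune roles (Gbp10, Ifih1, Ifit1, Ifit3b, Oasl2, Slfn8, Tgtp1 and Zbp1).

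Promoter sequence was examined in RefSeq windows (GRCm38.p6) of 250 bases before to 50 after the start, for genes grouped by the direction in which they were called. Windows were listed for 12650 of the tested symbols, 46 of the 61 downregulated genes, 11 of the 18 upregulated genes and 8 of the 11 target genes. The core of the RBPJ site, TGGGAA on either strand, was in 17.7% of 62 windows of downregulated genes, 30.8% of 13 windows of upregulated genes and 5 of 10 windows of target genes, and in 23.8% of the 16126 windows of all tested genes. The CArG box, to which serum response factor binds in contractile genes, was counted only in the strict form CCWWWWWWGG, where W is A or T. It was in 6.45% of the downregulated windows (Myl9, Fbxl22 and Ldb3), in none of the upregulated ones and in 1.3% of all windows. The core GAAANNGAAA of the interferon response element on either strand, a motif chosen after the upregulated genes were known, was in 46.2% of the upregulated windows (Ifih1, Ifit1, Ifit3b, Slfn8 and Tgtp1), in 1.61% of the downregulated ones (Mylk) and in 3.24% of all windows. A match is a description of the letters and not of binding. A motif may overlap another on the opposite strand. The 250 bases before the start are printed below for a gene of each kind, 5′ to 3′ on the strand of the gene, with the motif in capitals, as examples of the 3 motifs in genes described above. In the Myl9 window the CArG box begins 161 bases before the start, in Acta2 the RBPJ core begins 27 bases before it, and in Ifit1 the interferon motif begins 104 and again 85 bases before it. The Acta2 window has no strict CArG box, but ccctatatgg and ccttgttTGG in it come near that form. The marked RBPJ core overlaps the latter.
Myl9, chr2:156775214-156775463, plus strand: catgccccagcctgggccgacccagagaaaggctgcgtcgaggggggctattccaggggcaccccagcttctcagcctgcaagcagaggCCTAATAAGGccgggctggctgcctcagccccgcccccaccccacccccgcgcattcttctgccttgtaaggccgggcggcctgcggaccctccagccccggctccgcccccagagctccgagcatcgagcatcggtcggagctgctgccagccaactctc
Acta2, chr19:34255374-34255623, minus strand: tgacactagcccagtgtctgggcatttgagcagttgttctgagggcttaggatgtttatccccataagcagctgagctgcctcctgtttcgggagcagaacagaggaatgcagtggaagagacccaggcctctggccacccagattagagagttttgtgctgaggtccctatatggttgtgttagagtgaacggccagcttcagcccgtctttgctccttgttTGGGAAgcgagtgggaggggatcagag
Ifit1, chr19:34640639-34640888, plus strand: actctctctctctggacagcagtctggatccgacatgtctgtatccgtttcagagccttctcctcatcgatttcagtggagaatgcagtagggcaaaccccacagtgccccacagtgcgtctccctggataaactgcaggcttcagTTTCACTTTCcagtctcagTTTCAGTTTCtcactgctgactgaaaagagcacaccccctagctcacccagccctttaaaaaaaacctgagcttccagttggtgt

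On chromosome 17, 25 of 861 genes tested were called (2.90%), Notch3 included, with 17 upregulated and 8 downregulated. Off this chromosome, upregulated genes were outnumbered by downregulated ones. In the order of tested genes, 5 of the 50 genes within 25 places of Notch3 were called, none of the next 150, then 12 of 200 at places 101 to 200, 7 of 349 at places 201 to 400, and none of 111 beyond. Glo1, the glyoxalase that clears methylglyoxal, is 23 places from Notch3 and went from 56.5 to 83.0 CPM (median 64.6) up to 86.8 to 150 CPM (median 118). The groups did not overlap (log2 fold change 0.84, SE 0.0942; edgeR, adjusted p = 0.000188). Dnah8 (1.25), which overlaps it on the opposite strand, and Wiz (0.23), 6 places from Notch3, were picked after their values were seen.

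Of the 12 genes at places 101 to 200, 8 lie together among the class I genes of the major histocompatibility complex. H2-Bl rose by 3.38, from 0.0621 to 0.381 CPM up to 0.908 to 2.17 CPM, and H2-T24 and H2-T10, picked after their values were seen, by 1.63 and 1.28. The predicted genes Gm8909, Gm10499 and 2410017I17Rik beside them rose by 3.31, 2.03 and 3.52. A930015D03Rik, on the strand opposite H2-T24, went from 0.482 to 0.844 CPM up to 3.06 to 5.32 CPM, with a log2 fold change of 2.60 (SE 0.137; edgeR, adjusted p = 8.89e-09). Reads of near-identical class I genes can be assigned to the wrong copy, and the strand setting of the counting is not given in the sources used here, so these values are uncertain gene by gene.

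Lower on chromosome 17 were Mrgprh, an orphan receptor of the Mas family (1.96 to 4.53 CPM down to 0.426 to 0.885 CPM, log2 fold change -2.21), Gm35576 (-1.84), 9130008F23Rik (-1.14), AC138228.3 (-1.11), Efna5 (-0.35) and Myom1. Also lower was 2310061I04Rik (-0.20), at place 152 from Notch3. Myom1, a protein of the muscle M-band, went from 85.5 to 174 CPM (median 110) down to 47.5 to 78.3 CPM (median 69.0), a log2 fold change of -0.86 with no overlap. It lies far from Notch3 in the gene order and followed the smooth muscle list in the 12-month libraries (r = 0.878). Gm6475 (2.31) lies 345 places away on the other side. The effect of losing Notch3 and of alleles that travel with the inactivated gene cannot be told apart on this chromosome. Whether alleles left after backcrossing changed genes on other chromosomes, such as Gm13443, was not tested.

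**Figure D5:**
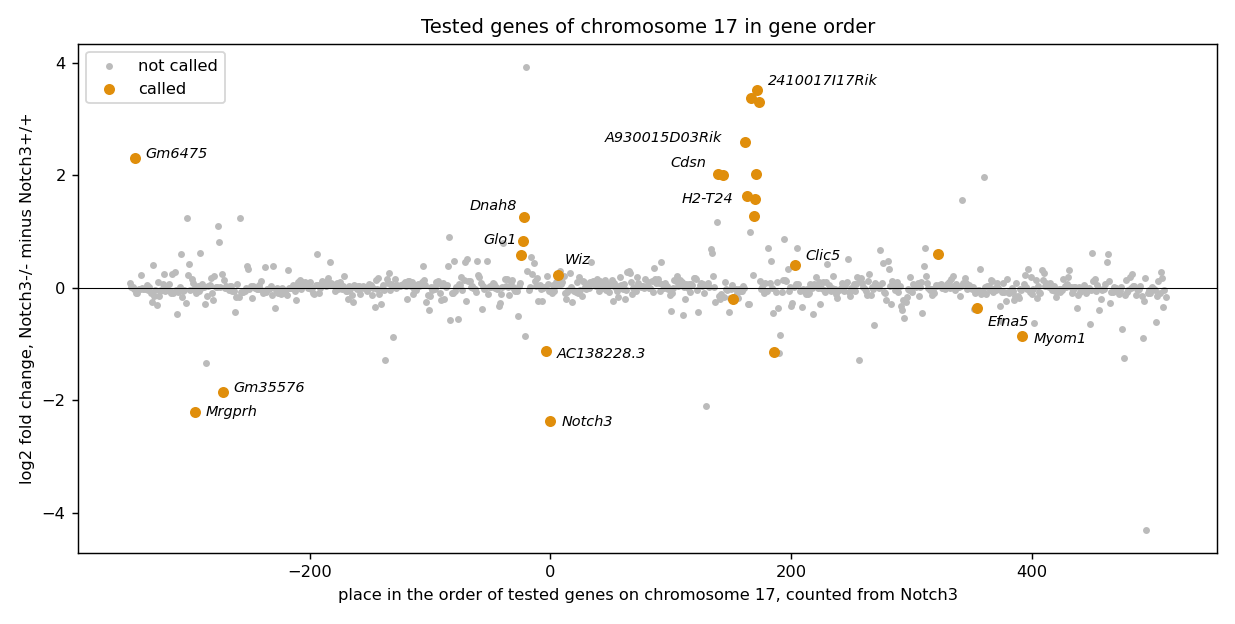
Each point is a tested gene of chromosome 17, placed by its order from Notch3 (at 0, in places along the list of tested genes) and its log2 fold change; called genes are orange. Called genes lie near Notch3, in a cluster of mostly upregulated genes at places 139 to 173, and singly elsewhere, with 24 called genes besides Notch3.

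In the other 16 libraries, which differ from these in age and line and carry the mouse Notch3 gene, levels were set side by side after normalization over all 32, with no test. A930015D03Rik lay at 0.582 to 1.22 CPM in WT and 0.280 to 1.30 CPM in TgNotch3R169C mice aged 12 months, near the Notch3+/+ range (0.486 to 0.847) and below the Notch3-/- range (3.10 to 5.37). Gm13443 reached at most 0.240 and 0.259 CPM at 12 months. Slc26a10 was different, since WT and TgNotch3R169C mice aged 12 months (2.55 to 7.23 and 3.92 to 8.59 CPM) overlapped the Notch3-/- range of 3.23 to 5.85 CPM. Myom1 was at 44.4 to 84.6 CPM in WT mice aged 12 months, which spans the Notch3-/- range of 48.1 to 78.5 CPM at 3 months. Myh11 did the same, at 255.4 to 424.2 CPM in WT mice aged 12 months and 278.5 to 416.8 CPM in Notch3-/- mice. Acta2 overlapped without spanning that range, at 352.1 to 543.7 CPM in WT mice aged 12 months and 459.7 to 738.9 CPM in Notch3-/- mice.

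How firmly single genes stand differed between the groups of genes. Of the 61 downregulated genes, 35 were called in all 16 fits that left out 1 library each, and 61 by DESeq2. Of the 18 upregulated genes off chromosome 17, 5 were called in all 16 fits (Slc26a10, Olfr78, Fgf7, Kcnj8 and Gm13443), and of the 24 genes on chromosome 17 besides Notch3, 19 were. Adding the mean of the smooth muscle markers as a covariate, which itself differed between the groups, left none of the 61 called and moved their median from -0.80 to -0.31, with 53 of 61 still below 0. Calls were lost in the other groups of genes too, since 2 of the 18 upregulated genes, 7 of the 24 on chromosome 17 and 1 of the 11 target genes stayed called, while the median of the 18 went from 0.75 to 0.73.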

How the data were processed

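The table that the authors deposited holds unnormalized counts of reads, all whole numbers, for 55357 Ensembl genes in 32 libraries. The submitters' processing notes name bcl2fastq 2.20.0.422, cutadapt 1.10, Bowtie2 2.2.8, STAR 2.5.3a, HTSeq 0.6.1p1 and the build mm39, with no role or order. The annotation release and the strand setting of the counting are not given in the sources used here, and wrong strand assignment would move counts between genes that overlap on opposite strands. The study tested 2 groups at a time with DESeq2's Wald test.

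From these counts, libraries were grouped by their labels, and the 8 Notch3-/- and 8 Notch3+/+ libraries were fitted alone in R 4.3.3 with edgeR 4.0.16 (filterByExpr, TMM, glmQLFit, glmQLFTest, Benjamini-Hochberg over 17714 genes, threshold 0.05). SE comes from the same fit. Symbols and chromosomes were matched for 52081 genes through GENCODE vM21, which is of another build, so only chromosome and gene order are given. Named genes are Notch3, up to 12 genes per direction off chromosome 17 and up to 6 per direction on it with the largest fold change and all 8 Notch3-/- libraries on the same side of the Notch3+/+ mean (predicted models left out off chromosome 17), every called list member off chromosome 17, and list members as examples. Genes and lists were chosen with earlier results of these data known.

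Replicates were distinct (chi-square per gene 12.0 to 148). The labels give replicate numbers 1 to 8 in each group, but the correlation of deviations of same-numbered libraries was over 0.1 in 4 of 8 pairs only (-0.145 to 0.383), so the numbers were not taken as pairs. Low and high numbers also share a sex in both groups. The fit was tested on simulated data. Alternatives used DESeq2 1.42.0, limma 3.58.1, other normalizations, filters, covariates, thresholds and left-out libraries. Each p-value sets a difference between the groups against the spread between these mice.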

Additional observations from a re-analysis of the deposited data

Results flagged for a closer look

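In 144 groups of 8 libraries, covering each named gene and each summed list of cell markers, the gap between the most extreme library and the next was divided by the range of the group, and 19 groups passed Dixon's 95% critical value for 8 samples, where chance passes about 1 in 20.

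The widest gaps were in marker lists of neighboring tissue. The choroid plexus list reached 24930 CPM in Notch3-/- replicate 8, with 231 CPM in the next library (gap share 0.996), and it was also apart in Notch3+/+ replicate 5 (563 CPM, 0.782). The pituitary list stood at 8856 CPM in Notch3+/+ replicate 5 (0.992) and at 147 CPM in Notch3-/- replicate 4 (0.527). Neuron markers were high in Notch3+/+ replicate 3 (2059 CPM, next 779 CPM, 0.771) and oligodendrocyte markers in Notch3-/- replicate 5 (2198 CPM, next 1451 CPM, 0.675). The red cell list was high in Notch3-/- replicate 1 (0.549), and the cardiac and skeletal muscle list, low throughout, in Notch3-/- replicate 2 (14.2 CPM, 0.674).

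Among downregulated genes, Casq2 was low in Notch3+/+ replicate 2 (2.01 CPM, next 3.44 CPM, 0.676), still above all Notch3-/- libraries. Cav3 was high in Notch3-/- replicate 5 (0.670 CPM, next 0.354 CPM, 0.663), Lrrc39 in Notch3+/+ replicate 4 (1.32 CPM, 0.558) and Jph2 in Notch3-/- replicate 1 (25.8 CPM, 0.537). Among upregulated genes, Col14a1 was low in Notch3+/+ replicate 3 (16.9 CPM, 0.547) and high in Notch3-/- replicate 1 (56.2 CPM, 0.586), Cdh13 was low in Notch3+/+ replicate 3 (37.5 CPM, 0.536), and Zbp1 was high in Notch3-/- replicate 4 (30.3 CPM, next 21.1 CPM, 0.534). On chromosome 17, H2-Bl was high in Notch3+/+ replicate 3 (0.621) and low in Notch3-/- replicate 7 (0.557), and A930015D03Rik was low in Notch3+/+ replicate 7 (0.547). What set these libraries apart was not tested.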

How the results depend on the processing

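RLE and upper-quartile normalization, the filter settings, limma voom, the neuron and Xist covariates kept all 4 counts of genes within 1.5 times. DESeq2 gave 280 genes in all, 83 higher and 149 lower off chromosome 17 and 48 on it, and 1 fit of all 4 groups gave 174 in all, 113 lower off chromosome 17 and 38 on it. A threshold of 0.01 left 58 in all, with 4 higher and 36 lower off chromosome 17, and asking for a change beyond 1.2-fold left 49, with 4 and 28. With the replicate number as a block, 97 genes were called, 10 of them higher off chromosome 17 and 0 of the interferon list, and 44 of the 61 lower and 6 of the 18 higher genes stayed called, and without both libraries rich in choroid plexus or pituitary RNA, an alternative chosen after seeing the data, 7 were higher. The numbers do not mark shared litters or days in the labels. The mean of the smooth muscle markers as a covariate left 14 in all, 5 higher and 1 lower off chromosome 17 and 8 on it, and, among the genes named by rule, turned the sign of Cnn1 (0.00464), P2rx1 (0.0237), Csrp1 (0.00845), Tagln (0.0549), Acta2 (0.0528), Lmod1 (0.0267) and Myl9 (0.0829), most of which are in that mean. Without 1 library, the total was 78 to 141, lower genes off chromosome 17 numbered 47 (without Notch3-/- replicate 7) to 83 and chromosome 17 genes 21 to 33. Higher genes off chromosome 17 numbered 6 to 31, with 6 to 10 without Notch3+/+ replicate 1, 4, 5, 6 or 7 or Notch3-/- replicate 6, 7 or 8, and 31 and 29 without Notch3-/- replicate 1 and 2. Of the fold changes of named genes under the alternatives, 637 kept direction and call, 113 lost the call with the same sign, and 7 turned sign. The causes were not tested. Genes under about 1 CPM rest on few counts.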
